A study of Mus musculus with 12 samples.

Results

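The cytochrome P450 family was taken as every array probe that is not a control and whose gene name in the scanner files begins with Cyp and a number, with Cyp51, the sterol demethylase, left out. This gave 102 probes for 70 genes of 16 families and 35 subfamilies, out of 41174 probes and 27666 gene names on the array. The genes were measured in 4 groups of 3 arrays: mENT1 knockout hearts, wild type hearts, mENT1 knockout kidneys and wild type kidneys. Both genotypes are FVB/N mice. mENT1 is the product of Slc29a1, an equilibrative transporter that carries nucleosides such as adenosine across the cell membrane. The labels give neither age nor sex nor treatment, and do not say how the allele was made or whether a heart and a kidney of one letter (a, b or c) came from one mouse. Each array received Cy3-labelled cRNA from total RNA of 1 tissue sample. Nothing in the labels beyond the letters separates animals from repeat samples, so p-values measure the spread between these samples.

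P450 enzymes are haem proteins of the endoplasmic reticulum or mitochondria that oxidise lipids, steroids and foreign compounds with electrons from NADPH. Families 1 to 3 handle mostly foreign compounds and some steroids and fatty acids, family 4 hydroxylates fatty acids and eicosanoids, and the families from 7 upward make or break bile acids, steroid hormones, vitamin D and retinoids. Liver holds the widest set. In the kidney the proximal tubule carries most of it, including arachidonic acid hydroxylases and the vitamin D enzymes, and several mouse kidney P450 genes differ between males and females. The heart expresses few of them strongly.

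Values below are log2 signals relative to the 75th percentile of the probes of an array, which is 0, so that a value compares arrays for 1 probe and not 1 gene with another. "Well above background" is the scanner software's own mark. Of the 70 genes, 40 were well above background on all 3 wild type hearts, 49 on all 3 knockout hearts, 47 on all 3 wild type kidneys and 49 on all 3 knockout kidneys. A total of 55 entered at least 1 test, because a gene was tested only if it was above background on every array of 1 group. The 15 left out were Cyp1a1, Cyp1a2, Cyp2c38, Cyp2c39, Cyp2c54, Cyp2c55, Cyp2c66, Cyp2d13, Cyp2g1, Cyp3a25, Cyp7a1, Cyp8b1, Cyp11b2, Cyp19a1 and Cyp21a1, and 7 of the 70 were above background on no array. Counts over the tested genes are therefore not counts over the family.

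**Figure D1:**
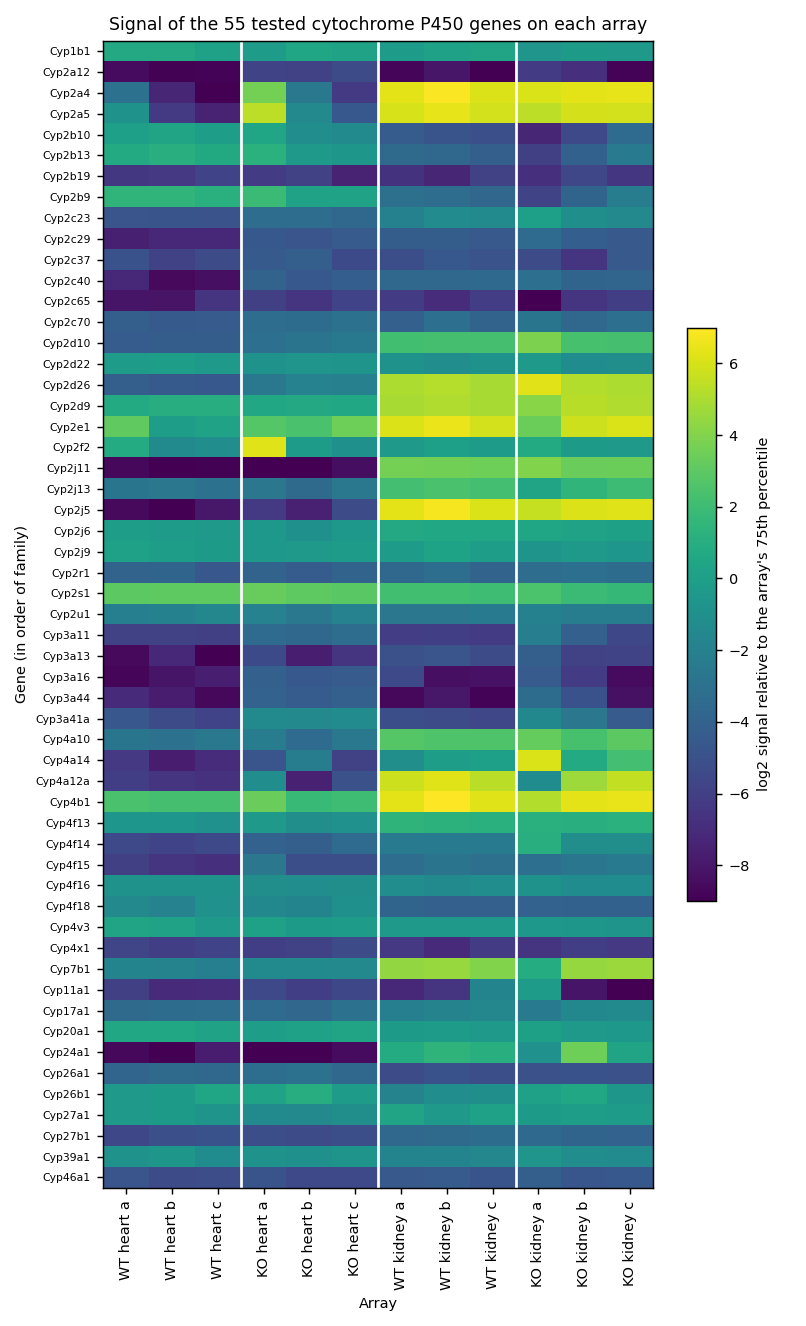
Log2 signal of the 55 tested P450 genes (rows, in order of family) on the 12 arrays (columns), relative to the 75th percentile of each array. Colour compares arrays along a row. The kidney columns are bright for Cyp2j5, Cyp2j11, Cyp4a12a, Cyp2d26 and Cyp24a1, the heart columns for Cyp2b9, Cyp2b10 and Cyp2b13, and knockout kidney a differs from the other kidneys in several rows.

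Facts of the arrays bear on what follows. Slc29a1 itself was at 3.15, 3.23 and 3.36 in wild type hearts and 1.38, 0.59 and 1.53 in knockout hearts, and fell by 2.08 on the log2 scale (adjusted p = 0.0357). It was at 1.51, 1.27 and 1.62 in wild type kidneys and -1.43, -1.30 and -1.43 in knockout kidneys, and fell by 2.85 on the log2 scale (adjusted p = 0.00553), so the scanner files match their labels in both tissues. In the deposited table of processed values each column follows the array of the other genotype, and directions here rest on the scanner files. All 8 heart muscle markers were above background on every heart and all 8 kidney epithelium markers on every kidney. Xist, which is transcribed from the inactive X in females, was at 1.70 and 1.69 on knockout hearts a and b and at 1.21 on knockout kidney a, and not above background on the other 9 arrays. All 3 knockout hearts lay on slide 3 and all 3 wild type hearts on slide 4, so for heart the effects of genotype and of slide cannot be told apart. Knockout kidney a lay alone on slide 1, wild type kidney c on slide 3 and the other 4 kidneys on slide 2.

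The probes and promoters that the knockout results turn on are printed first. The 60-base probes of Cyp3a11, Cyp2c29, Cyp2c40 and Cyp2a12, 4 genes of 3 subfamilies that rose in knockout hearts with and without a block for the letter, are given as the files hold them, 5′ to 3′ and with no part marked. In mm7, the build of the file headers, they lie at chr5:144750340-144752207 on the minus strand (Cyp3a11), chr19:39222926-39222985 on the plus strand (Cyp2c29), chr19:39661106-39661165 on the minus strand (Cyp2c40) and chr7:23955386-23955445 on the plus strand (Cyp2a12). The Cyp3a11 positions span 1868 bases for a 60-base probe.
Cyp3a11: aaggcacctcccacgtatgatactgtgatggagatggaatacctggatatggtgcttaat
Cyp2c29: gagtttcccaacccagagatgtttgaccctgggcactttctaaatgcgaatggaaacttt
Cyp2c40: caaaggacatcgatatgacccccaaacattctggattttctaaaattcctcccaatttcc
Cyp2a12: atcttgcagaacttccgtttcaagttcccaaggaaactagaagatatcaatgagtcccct

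Of the 12 genes that rose in knockout hearts (below), 11 have a promoter in the RefSeq table of build GRCm38.p6. The 250 bases before the start of 5 of them follow, 5′ to 3′ on the gene's own strand. Capitals mark 3 motifs searched on both strands: AGGTCA (a half-site of nuclear receptors), TTGCNNAA (a form of the C/EBP site) and TATAAA (the letters of the TATA box, at any place in the window). No 2 matches overlapped in the 11 promoters, and the Cyp2c40 window, in lower case throughout, holds none of the 3.
Cyp3a11 (chr5:145879855-145880104, minus): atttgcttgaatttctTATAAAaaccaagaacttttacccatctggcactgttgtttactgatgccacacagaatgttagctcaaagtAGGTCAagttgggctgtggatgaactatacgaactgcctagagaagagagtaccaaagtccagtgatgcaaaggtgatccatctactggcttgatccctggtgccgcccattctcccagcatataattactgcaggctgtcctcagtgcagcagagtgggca
Cyp3a41a (chr5:145720137-145720386, minus): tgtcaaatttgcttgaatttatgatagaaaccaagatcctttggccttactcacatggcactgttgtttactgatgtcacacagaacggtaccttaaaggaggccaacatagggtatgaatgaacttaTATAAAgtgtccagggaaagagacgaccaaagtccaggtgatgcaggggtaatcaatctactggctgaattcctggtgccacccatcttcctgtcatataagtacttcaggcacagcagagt
Cyp3a44 (chr5:145805875-145806124, minus): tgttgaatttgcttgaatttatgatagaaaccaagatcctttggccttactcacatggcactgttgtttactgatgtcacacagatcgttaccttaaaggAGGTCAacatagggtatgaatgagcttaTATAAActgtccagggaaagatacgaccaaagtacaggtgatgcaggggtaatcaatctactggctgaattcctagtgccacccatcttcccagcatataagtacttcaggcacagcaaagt
Cyp2c29 (chr19:39286835-39287084, plus): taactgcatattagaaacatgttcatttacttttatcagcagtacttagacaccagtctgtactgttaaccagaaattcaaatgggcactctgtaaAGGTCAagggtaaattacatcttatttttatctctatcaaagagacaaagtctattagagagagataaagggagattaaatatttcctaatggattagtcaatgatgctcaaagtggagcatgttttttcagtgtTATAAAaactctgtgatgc
Cyp2c40 (chr19:39812815-39813064, minus): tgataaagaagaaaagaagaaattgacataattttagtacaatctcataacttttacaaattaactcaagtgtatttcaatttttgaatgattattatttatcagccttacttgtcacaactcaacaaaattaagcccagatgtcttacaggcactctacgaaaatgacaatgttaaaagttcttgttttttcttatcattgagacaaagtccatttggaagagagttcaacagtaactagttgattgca

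The promoters of Cyp3a16, Cyp3a41a and Cyp3a44 were 93.9% to 95.9% identical without gaps at the best shift of up to 10 bases, and that of Cyp3a11 was 34.4% to 44.2% identical to them by the same measure. AGGTCA was present in 4 of the 11 promoters (Cyp2c29, Cyp2c70, Cyp3a11 and Cyp3a44), in 12 of the 53 family promoters in the table and in 13.8% of all 27025 promoters. TTGCNNAA was present in 1 of the 11 (Cyp4f14), in 11 of 53 and in 9.55% of all. TATAAA was present in 9 of the 11, in 22 of 53 and in 12.97% of all. The match began 19 to 39 bases before the start in Cyp2a12, Cyp2c29, Cyp2c70, Cyp2d10 and Cyp2d26. In Cyp2c70, Cyp2d10 and Cyp2d26 it lies on the opposite strand, and the gene's own strand reads TTTATA. In Cyp3a11, Cyp3a16, Cyp3a41a and Cyp3a44 TATAAA began 122 to 234 bases before the start. A match is a description of these letters in this window.

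The first comparison asked how the family differs between the tissues, in wild type kidneys against wild type hearts. Of the 50 genes tested, 38 passed at an adjusted p under 0.05 (76%), against 64.5% of all 17980 genes tested. Of the 38, 26 were higher in kidney (30.3% of all genes tested were called in that direction) and 12 higher in heart (34.2% of all). The median difference was 1.16 over the members and -0.07 over all genes.

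The genes with the largest fitted differences, Cyp2j5 and Cyp2j11, belong to Cyp2j, a subfamily of arachidonic acid epoxygenases of which 4 of 5 genes were higher in kidney. Cyp2j5, the main epoxygenase of mouse proximal tubule, was at 6.35, 6.75 and 6.10 in wild type kidneys and not above background on any wild type heart, at least 8726-fold higher (adjusted p = 4.22e-08; the bound sets the kidney mean against the dimmest signals that the heart arrays could measure). Cyp2j11 was at 3.63, 3.61 and 3.46 in kidneys and likewise not above background in hearts, at least 1225-fold higher (adjusted p = 2.17e-08). Cyp2j13 was higher by 5.08 ± 0.15 (SE) on the log2 scale and Cyp2j6 by 0.82 ± 0.14. Cyp2j9, the fifth member, differed by 0.04 ± 0.19 (adjusted p = 0.885), within the spread of the arrays, and was at -0.31 to 0.26 on the 6 wild type arrays.

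All 3 Cyp4a genes, of a subfamily of fatty acid omega-hydroxylases, were higher in kidney. Cyp4a12a, the androgen-driven member, was at 5.81, 6.21 and 5.36 in kidneys and at -6.02, -6.62 and -6.69 in hearts, of which 1 array was above background, a difference of 12.23 ± 0.27. Cyp4a14 gave 6.62 ± 0.43, also with 1 of 3 wild type hearts above background, so that for both genes the heart side rests mostly on signals near the floor. Cyp4a10 gave 5.46 ± 0.16. Cyp4b1, a hydroxylase of short fatty acids and foreign compounds, was at 6.36, 6.97 and 6.21 in kidneys, where its spots were saturated on all 3 arrays, and was at least 18.1-fold higher than in hearts.

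Members that act on foreign compounds and steroids were also on the kidney side. Cyp2d26 was at 5.01, 5.23 and 4.89 in kidneys and at -4.14, -4.46 and -4.57 in hearts (9.43 ± 0.17), and Cyp2d10 (6.53 ± 0.12) and Cyp2d9 (4.07 ± 0.14), a testosterone hydroxylase of male mice, were higher too. Cyp2e1, the ethanol and acetone oxidising enzyme, was at 6.16, 6.50 and 5.88 in kidneys. In wild type hearts it was at 3.097 in a, -0.07 in b and 0.20 in c, so that the groups did not overlap but the heart arrays disagreed (5.10 ± 0.78, adjusted p = 0.000871). The median log2 signal of 7 fat markers on the same hearts was 5.30, 0.75 and 2.96, and their part in the Cyp2e1 values was not tested.

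Cyp2a4 and Cyp2a5, steroid and coumarin hydroxylases, were higher in kidney by 10.91 ± 0.79 and 10.98 ± 1.56. The hearts again spread: Cyp2a5 was at -0.79 in wild type heart a, -6.29 in b and -7.47 in c. The genes are close paralogs and their separate values are uncertain. The Cyp2a4 probe tested in kidney between genotypes, which is not the one behind the tissue value, at chr7:23212199-23212258 and the Cyp2a5 probe behind the tissue value at chr7:23212221-23212279 (mm7, plus strand) share a run of 28 bases, GTAGACTTGCAGAGGATATTTCAAAGGT, shown because it is the longest run common to probes of different members.

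Among the enzymes of hormones, Cyp24a1, the mitochondrial 24-hydroxylase that inactivates vitamin D, was at 0.84, 1.44 and 1.09 in wild type kidneys and not above background in hearts, at least 225-fold higher (adjusted p = 4.97e-07). Cyp27b1, which activates vitamin D, was higher in kidney by 1.71 ± 0.19. Cyp7b1, the oxysterol 7-alpha-hydroxylase, was at 4.40, 4.54 and 3.97 in kidneys and -1.79, -1.85 and -2.09 in hearts (6.22 ± 0.19). Cyp17a1, the 17-alpha-hydroxylase of steroid synthesis, was higher by 1.51 ± 0.17. Cyp27a1, the sterol 27-hydroxylase (0.47 ± 0.22), and Cyp46a1, the cholesterol 24-hydroxylase best known from brain (0.50 ± 0.20), did not pass.

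In the Cyp2c subfamily, epoxygenases and drug oxidases best known from liver, 3 of the 5 tested genes passed, all higher in kidney. Cyp2c23 (Cyp2c44 in the files), an epoxygenase of kidney, was at -1.995, -1.28 and -1.39 in kidneys and -4.77, -4.87 and -4.89 in hearts (3.29 ± 0.21). Cyp2c40 was at least 8.58-fold and Cyp2c29 at least 4.93-fold higher, both without signal above background on wild type hearts. Of Cyp3a, the main drug oxidases of liver, Cyp3a13 was at least 3.19-fold higher in kidney, while Cyp3a11 (-0.22 ± 0.13) and Cyp3a41a (-0.12 ± 0.29) did not pass. In Cyp4f, hydroxylases that inactivate leukotriene B4 and other eicosanoids, Cyp4f15 (3.38 ± 0.24, with 1 of 3 hearts above background), Cyp4f14 (3.18 ± 0.14) and Cyp4f13 (1.96 ± 0.15) were higher in kidney.

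The heart side was led by Cyp2b, a subfamily known for induction by phenobarbital through the receptor CAR. Cyp2b9 was at 1.45, 1.48 and 1.14 in wild type hearts and -3.12, -3.26 and -3.70 in wild type kidneys, lower in kidney by -4.71 ± 0.20. Cyp2b10 (-4.86 ± 0.23) and Cyp2b13 (-4.63 ± 0.22) gave differences of the same size. The fourth member, Cyp2b19, known from skin, did not pass (-0.43 ± 0.35). The second probe of Cyp2b13 was not above background on any wild type heart, whereas the first was on all 3, so that the signal given for Cyp2b13 is that of 1 probe only.

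The other 9 genes higher in heart differed less. Cyp4f18, a leukotriene hydroxylase of white blood cells, was at -1.48, -1.94 and -0.90 in hearts and -3.84, -4.12 and -4.09 in kidneys (-2.57 ± 0.26). The retinoic acid hydroxylases Cyp26a1 (-1.54 ± 0.16) and Cyp26b1 (-1.30 ± 0.30) were both higher in heart. Cyp2s1 (-0.90 ± 0.13), Cyp39a1, an oxysterol 7-alpha-hydroxylase (-0.86 ± 0.20), Cyp4x1 (-0.73 ± 0.25), the orphan enzyme Cyp20a1 (-0.70 ± 0.15), Cyp2u1 (-0.69 ± 0.18) and Cyp4f16 (-0.39 ± 0.13) completed the 12. Members above background on all 6 arrays that did not pass, beside those given, were Cyp4v3 (-0.46 ± 0.20), Cyp1b1, which oxidises oestrogens and polycyclic hydrocarbons (-0.35 ± 0.21), the naphthalene oxidase Cyp2f2 (0.39 ± 0.54), the vitamin D 25-hydroxylase Cyp2r1 (0.52 ± 0.27), Cyp2c37 (0.53 ± 0.27) and Cyp2c70 (0.62 ± 0.26).

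**Figure D2:**
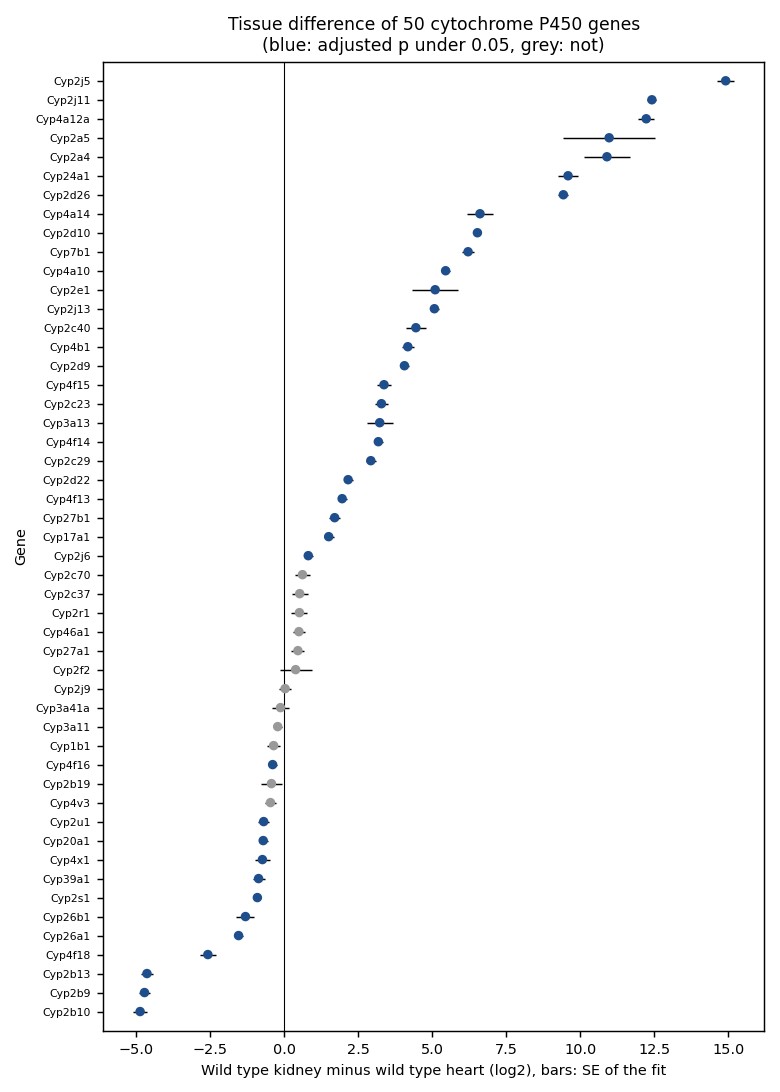
Difference of wild type kidney minus wild type heart (x axis, log2) for the 50 P450 genes tested (y axis), with the SE of the limma fit as bars. Blue points passed at an adjusted p under 0.05, grey points did not. 26 blue points lie right of 0, up to 14.92 for Cyp2j5, and 12 left of it, down to -4.86 for Cyp2b10. Values of genes not above background in heart are fitted and not bounds.

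The knockout arrays gave the same contrast in other samples. In knockout kidneys against knockout hearts 30 of 55 tested members passed, 24 higher in kidney and 6 in heart, against 53.6% of all genes. Of the 38 members called in wild types, all 38 were tested there, 36 had the same direction and 27 passed with it. The other 2 were Cyp4f16, which went from -0.39 to 0.04, and Cyp2d22, which was tested there with another probe and gave -0.22.

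Where a gene had several usable probes, they gave 1 direction for 16 of 17 genes in the tissue comparison. The exception was Cyp2d22, for which the probe tested was higher in kidney by 2.16 ± 0.15 and another gave -1.43, so its tissue direction is uncertain. The size also differed between probes of 1 gene: Cyp2d10 gave 6.53 with the probe tested and 0.44 with the other, Cyp2j13 gave 5.08 and up to 14.82, and Cyp4a10 gave 5.46 and up to 10.55. The SE of a gene covers the spread between arrays and not that between its probes. One of the 26 genes counted as higher in kidney is this one.

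Genes that serve the family were also compared between the wild type tissues, where 30.3% of all genes tested were called higher in kidney and 34.2% higher in heart. Of 17 electron donors and enzymes of haem synthesis, all tested, 10 were higher in kidney and 0 lower: cytochrome b5 Cyb5b (2.87 ± 0.19), P450 oxidoreductase Por (2.31 ± 0.21), Cyb5a (2.12 ± 0.23, saturated in kidneys) and Cpox of haem synthesis (1.77 ± 0.15) led. Of 29 receptors and factors known to regulate P450 genes, 11 were higher in kidney and 9 in heart, near the shares over all genes. Hnf4a (at least 1392-fold), a nuclear receptor of liver and kidney, the vitamin D receptor Vdr (7.71 ± 0.15) and the bile acid receptor Nr1h4 (7.10 ± 0.23) led in kidney, and Rxrg (-5.44 ± 0.22), Ahrr (-4.84 ± 0.22), Nr5a2 (-2.05 ± 0.23) and Nr0b2 (-1.98 ± 0.24) in heart. Of 36 conjugating and other drug enzymes 21 were higher in kidney, among them Sult1c2 (at least 7965-fold), Ugt3a1 (at least 7813-fold), Ugt2b37 (at least 4904-fold) and Sult1d1 (13.22 ± 0.998), and 9 in heart, led by the aldehyde oxidases Aox1 (-3.92 ± 0.19) and Aox3 (-2.19 ± 0.18), Gsta4 (-2.18 ± 0.18) and Sult1a1 (-2.03 ± 0.15). Of 11 other enzymes of arachidonic acid, 8 were higher in heart, led by the prostaglandin synthases Ptgds (-6.02 ± 0.18) and Ptgis (-4.36 ± 0.20), Ptgs2 (at least 2.99-fold) and the lipoxygenase Alox5 (-2.50 ± 0.33), and 2 in kidney, Ptges (0.77 ± 0.27) and Tbxas1 (0.62 ± 0.20).

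In hearts, 12 of the 50 members tested were higher in the knockout and none lower (24%), against 0.669% of all 17480 genes called in either direction and 0.578% called higher. Of the 12, 5 were above background on no wild type heart, so they entered the test only through the knockout hearts. Among genes above background on every array, 4 of 39 members passed (Cyp2c23, Cyp2d26, Cyp3a11 and Cyp3a41a), against 0.163% of 16590 genes. They belonged to 5 subfamilies: Cyp3a (4 of 4 tested), Cyp2c (4 of 6), Cyp2d (2 of 4), Cyp2a (1 of 3) and Cyp4f (1 of 5). All are known as liver enzymes. With the letter as a block, which treats same-letter hearts as pairs (correlations of same-letter deviations 0.186 to 0.386), 5 of the 12 passed: Cyp2a12, Cyp2c29, Cyp2c40, Cyp3a11 and Cyp3a41a. The other 7 lay at adjusted p = 0.0505 to 0.105 with the block.

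Cyp3a11 was at -5.89, -5.84 and -5.96 in wild type hearts and -3.43, -3.57 and -3.26 in knockout hearts. The change of 2.47 ± 0.14 had the smallest adjusted p of the family (0.00221, limma, as for all adjusted p-values here). Cyp3a41a, known as a female-biased liver gene, was at -4.64, -5.31 and -5.76 against -1.33, -1.45 and -1.26 (3.89 ± 0.28, adjusted p = 0.00571). In both genes every knockout heart lay above every wild type heart by more than the spread within either group.

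Cyp3a16 and Cyp3a44 were not above background on any wild type heart and above it on all knockout hearts. Cyp3a16 was at -4.08, -4.61 and -4.42 in knockout hearts, at least 4.99-fold higher (adjusted p = 0.00726). Cyp3a44 was at -3.97, -4.35 and -4.07, at least 5.89-fold higher (adjusted p = 0.0179). The tested probes of Cyp3a44 (chr5:144587795-144587854) and Cyp3a41a (chr5:144587472-144587531, both minus strand in mm7) are placed next to each other, and these genes are near-identical copies, so their separate values are uncertain.

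Cyp2c29 was not above background in wild type hearts and at -4.57, -4.78 and -4.41 in knockout hearts, at least 4.29-fold higher (adjusted p = 0.00387). Cyp2c40 was at -3.92, -4.59 and -4.20, at least 5.48-fold higher (adjusted p = 0.0170). Its second probe was above background on no heart. Cyp2c23 rose from -4.77, -4.87 and -4.89 to -3.29, -3.29 and -3.62 (1.44 ± 0.15), and Cyp2c70, an enzyme of bile acid hydroxylation, by 1.11 ± 0.16 (adjusted p = 0.0490).

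Cyp2a12, a liver steroid hydroxylase, was not above background in wild type hearts and at -5.71, -5.90 and -5.31 in knockout hearts, at least 2.07-fold higher (adjusted p = 0.00366). Cyp2d26 rose from -4.14, -4.46 and -4.57 to -2.61, -1.88 and -2.02 (2.22 ± 0.23), Cyp2d10 by 1.44 ± 0.18, and Cyp4f14 from -5.45, -5.77 and -5.46 to -3.95, -4.13 and -3.38 (1.74 ± 0.23). The second probe of Cyp2d10 was above background on all hearts and was at -5.76 to -6.26 in wild types and -5.50 to -6.17 in knockouts, groups that overlap.

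**Figure D3:**
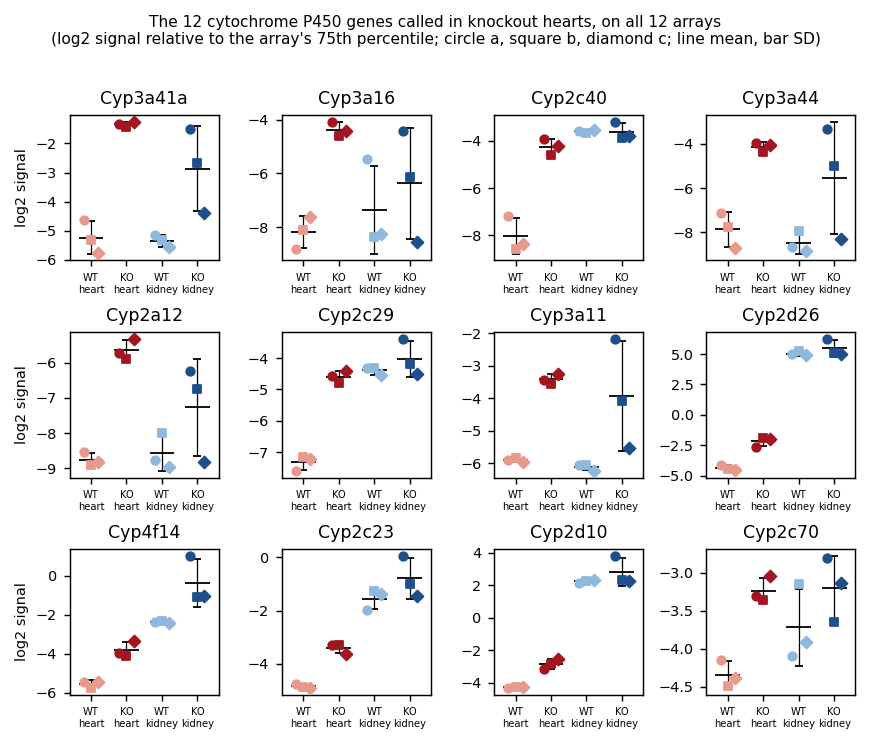
Log2 signal relative to the array's 75th percentile (y axis, own scale per gene) of the 12 P450 genes called in knockout hearts, for each array of the 4 groups (x axis; circle a, square b, diamond c; line mean, bar SD, n = 3). In each panel the 3 knockout hearts lie above the 3 wild type hearts. For Cyp3a11 knockout kidney a is at -2.17, b at -4.07 and c at -5.54.

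Liver markers moved with these genes. Of the 16 liver markers tested, 15 were higher in knockout hearts and 11 were called, with a median change of 3.13. Of all 17480 genes, 42.2% were higher and 0.578% were called higher. Alb was at -2.13, -2.85 and -3.62 in wild type hearts and 0.31, 0.46 and 1.34 in knockout hearts, and Cps1 at -6.06, -7.32 and -7.90 against -2.19, -3.35 and -1.99. The summed signal of the 18 markers was 12.2 to 19.6 times the 75th percentile in knockout hearts and 10.6 to 12.8 in wild type hearts. The largest part of each sum is Ahsg, at 3.49, 3.26 and 3.43 in wild type hearts and 2.79, 3.63 and 3.45 in knockout hearts. The sums therefore say little about the other markers. Ttr and Fga were not above background on any heart, and Apoa1 and Mbl2 on any wild type heart. Their part in the P450 result was not tested. Fewer cells of a type and less RNA per cell cannot be told apart in tissue RNA.

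All 12 stayed higher in knockout hearts in each alternative that gave them a value, but the number called did not stay the same. With the other background correction (normexp on the mean and background signals, offset 50) it was 1, Cyp3a41a. It was 7 or 5 when knockout heart a or b was left out, and 4 or 6 when wild type heart b or c was. With sex as a covariate it was 6, in a fit whose genotype effect rests on knockout heart c among the knockouts. With the arrays that carry Xist left out, knockout heart c alone stands for the knockouts, so no count is given. Apart from that fit, Cyp3a41a passed in every alternative that gave it a value. Cyp3a11, Cyp2a12 and Cyp2c29 passed in each of theirs but normexp.

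Among members not called in heart, 8 had groups that did not overlap. With the 12 called, whose groups did not overlap either, this made 20 of 50 members (40%), against 22.1% of all genes. The excess over that share came from the called members, and the share among those not called was near it. Of the 8, Cyp4a14 (2.68 ± 0.91), Cyp4f15 (2.14 ± 0.70) and Cyp7b1 (0.50 ± 0.14) were higher in knockouts. Cyp27a1 (-0.89 ± 0.18, adjusted p = 0.119), Cyp2d22 (-0.51 ± 0.14), Cyp2j6 (-0.41 ± 0.19), Cyp2d9 (-0.31 ± 0.13) and Cyp4f16 (-0.29 ± 0.12) were lower. Cyp27a1 was at -0.31, -0.26 and -0.69 in wild type hearts and -1.40, -1.44 and -1.08 in knockout hearts.

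The other enzymes of hormones and sterols stayed within 1 log2 unit in heart and did not pass: Cyp11a1, the side-chain cleavage enzyme of steroid synthesis (0.98 ± 0.34), Cyp17a1 (-0.02 ± 0.20), Cyp26a1 (0.38 ± 0.20), Cyp26b1 (0.38 ± 0.35), Cyp27b1 (-0.02 ± 0.18), Cyp39a1 (0.04 ± 0.21) and Cyp46a1 (-0.14 ± 0.24). Cyp1b1 (-0.36 ± 0.23) did not pass either.

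The fitted heart changes of Cyp2a5 (4.64 ± 2.85), Cyp2a4 (2.95 ± 2.39) and Cyp2f2 (2.25 ± 1.88) followed the high values of knockout heart a. Cyp2f2, an enzyme of airway club cells, was at 6.21 in knockout heart a and at -0.17 and -0.96 in b and c, and at 0.82, -1.32 and -1.18 in wild type hearts. Cyp2a5 was at 5.42 in knockout heart a against -1.47 and -4.60, and Cyp2a4 at 3.31 against -3.86 and -6.10. Cyp1a1, a target of the Ah receptor in lung among other tissues, was above background on that heart (-3.93) and on no other heart. None of the 3 tested genes passed (adjusted p = 0.424 to 0.530). On the same array the summed signal of 9 lung and airway markers was 353, against 0.773 to 0.822 on the other knockout hearts and 0.348 to 5.22 on wild type hearts. All 9 were above background there, 8 and 6 of them on knockout hearts b and c and 4 to 7 on wild type hearts. The part of lung RNA in these values was not tested.

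In kidneys, 0 of the 50 members tested passed in limma, against 0.163% of all 17163 genes. At an unadjusted p under 0.05 there were 9 of the 50, against 2256 of the 17163 genes. The median change was 0.00 over the members and -0.07 over all genes. Of the members 25 were higher and 25 lower, and of all genes 41.6% were higher. The groups did not overlap for 11 members (22%), against 21.4% of all genes, a share near the background.

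Of those 11, 7 were higher in knockout kidneys. Cyp4a14 was at -1.11, -0.09 and 0.02 in wild types and 6.08, 0.77 and 2.21 in knockouts (3.41 ± 1.26, adjusted p = 0.322). Cyp3a41a was at -5.16, -5.32 and -5.58 against -1.52, -2.67 and -4.39 (2.49 ± 0.66, adjusted p = 0.192), and Cyp3a11 at -6.06, -6.04 and -6.23 against -2.17, -4.07 and -5.54 (2.19 ± 0.76). Cyp4f14 was at -2.38, -2.31 and -2.43 against 1.02, -1.09 and -1.06 (1.997 ± 0.557, adjusted p = 0.209). Cyp26b1 (1.41 ± 0.35), Cyp39a1 (0.70 ± 0.20) and Cyp2u1 (0.40 ± 0.17) were also higher. Cyp1b1 (-0.57 ± 0.19), Cyp2j9 (-0.55 ± 0.19), Cyp2j6 (-0.35 ± 0.16) and Cyp4v3 (-0.20 ± 0.15) were lower.

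Cyp4f14 passed in 4 of its 16 alternatives. It changed by 1.27 on the log2 scale within slide 2 (2 arrays against 2, adjusted p = 0.0422) and with slide as a block (adjusted p = 0.0392), by 1.30 with sex as a covariate (adjusted p = 0.0334) and by 1.30 without knockout kidney a (adjusted p = 0.0371). Over all of them the adjusted p ran from 0.0334 to 0.701 and the change from 1.27 to 2.35. The 4 settings also called more genes of the whole array than the main fit, which called 28 of 17163. With slide as a block it was 287 of 17163, and within slide 2 it was 262 of 17652. With sex as a covariate it was 88 of 17163, and without knockout kidney a 82 of 17612. Without knockout kidney c, Cyp3a41a passed with a change of 3.26 (adjusted p = 0.0325) and Cyp3a44, then above background in the group, with 4.34 (adjusted p = 0.0376). That fit called 94 of 17411 genes.

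Of 16 liver markers tested in kidney, 0 were called, and 12 had a higher mean in knockouts. Of all 17163 genes, 0.163% were called and 41.6% were higher. Alb was at -1.25, -0.81 and -0.70 in wild type kidneys and at 1.28, -0.05 and -0.88 in knockouts, and Cps1 was not above background in wild types and was at -3.68 in a, -4.67 in b and not above background in c. The Cyp3a11, Cyp3a41a and Cyp3a44 values were also highest in knockout kidney a and lowest in c. The summed signal of the list was 10.9 to 19.2 in knockouts and 11.3 to 16.0 in wild types. The part of liver RNA was not tested.

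Knockout kidney a stood apart from the other 5 kidneys in this family. It lay at least 1 log2 unit outside their range for 16 of the 50 members (32%), above it for 7 and below it for 9, compared with 5.80% of all genes on this array. Each other kidney did so for 0 to 2 members. This is the kidney with Xist and the one alone on slide 1, so sex and slide cannot be told apart here.

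Cyp2j13 lay furthest outside. The probe tested in kidney, which is not the one tested between the tissues, was at -5.46 in knockout kidney a and at 5.37 to 6.60 on the others. Cyp4a12a was at -1.23 against 4.68 to 6.21, Cyp7b1 at 0.94 against 3.97 to 4.58 and Cyp2e1 at 3.42 against 5.75 to 6.50. Cyp4a14 went the other way, at 6.08 (saturated) against -1.11 to 2.21. Differences between the sexes in mouse kidney are known for these 5. That is background on these genes, and the part of sex or of slide in the values was not tested. Cyp2b9, Cyp2b10, Cyp2b13, Cyp4b1 and Cyp24a1 were also below the range, and Cyp2c23, Cyp2d10, Cyp2d26, Cyp3a11, Cyp3a41a and Cyp4f14 above it. Without this array the kidney change of Cyp2j13 went from -4.19 ± 2.88 to -0.46, that of Cyp4a12a from -2.80 to -0.69 and that of Cyp7b1 from -0.98 to 0.21.

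**Figure D4:**
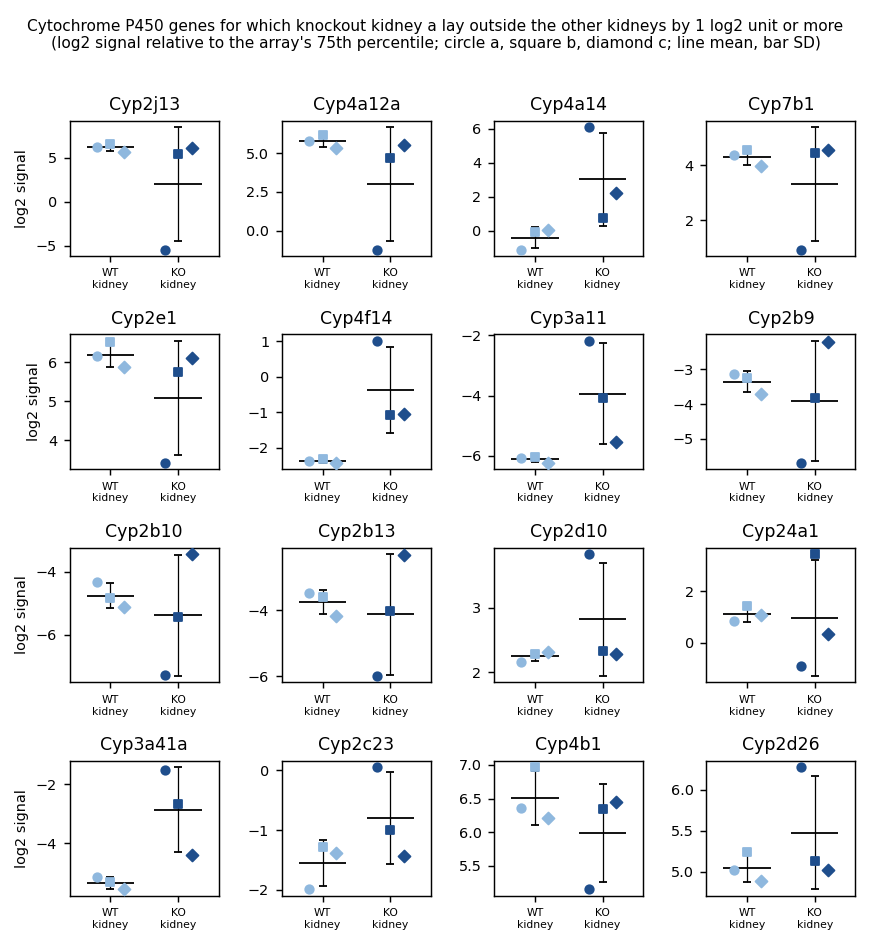
Log2 signal relative to the array's 75th percentile (y axis, own scale per gene) on the 3 wild type and 3 knockout kidneys (x axis; circle a, square b, diamond c; line mean, bar SD) of the 16 P450 genes for which knockout kidney a lay at least 1 log2 unit outside the other 5. The widest gap is that of Cyp2j13, with -5.46 against 5.37 to 6.60.

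The 3 probes of Cyp2j13 differed on that array, which is why 2 of them are printed beside a probe of Cyp2j11. Capitals mark the run of 18 bases that the first Cyp2j13 probe and the Cyp2j11 probe share.
Cyp2j13 (chr4:95438221-95449204, minus, mm7): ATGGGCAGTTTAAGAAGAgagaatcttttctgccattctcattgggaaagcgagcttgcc
Cyp2j13 (chr4:95464175-95464234, minus, mm7): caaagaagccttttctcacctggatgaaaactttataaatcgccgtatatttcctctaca
Cyp2j11 (chr4:95690233-95690292, minus, mm7): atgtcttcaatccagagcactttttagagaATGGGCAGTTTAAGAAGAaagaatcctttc

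The first of these Cyp2j13 probes was at 0.37 in knockout kidney a and at 1.49 to 2.38 on the other kidneys, and it was above background on all hearts (-3.44 to -2.62). The second was at -9.30, not above background, in knockout kidney a and at 0.08 to 1.47 on the others, and was not above background on any heart. The size of the gap therefore depends on the probe. Cyp2j11 was at 3.94 in knockout kidney a and 3.37 to 3.63 on the other kidneys.

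Knockout kidney a also carried signal of adrenal steroid enzymes. Cyp11a1 was at -0.22 there, at -1.75 in wild type kidney c and not above background on the other 4 kidneys. Cyp11b2, the aldosterone synthase (-4.22), and Cyp21a1, the 21-hydroxylase (-4.71), were above background on knockout kidney a and on no other array. Of the adrenal cortex markers, Star was at 0.63 on knockout kidney a and -6.22 to -5.67 on the other 5, wild type kidney c included. Hsd3b1 was at 3.04 there against -3.14 to -2.92, and Akr1b7 at 1.54 against -3.02 to -2.37. Nr5a1 lay within the range of the others. The summed signal of the 7 markers was 31.6 to 38.8 in knockouts and 31.9 to 40.7 in wild types. The largest part of each sum is Fdx1, at 4.63 on knockout kidney a and 4.92 to 5.30 on the others. The part of adrenal RNA was not tested.

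**Figure D5:**
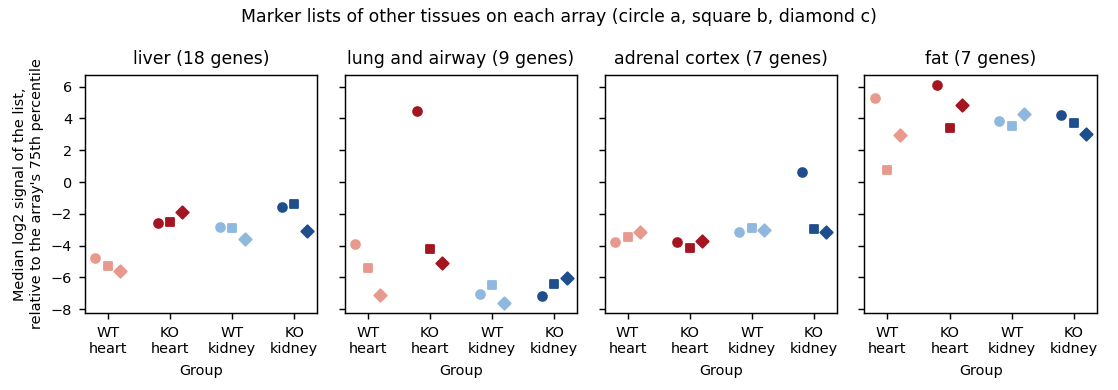
Median log2 signal of 4 marker lists of other tissues (y axis, relative to the array's 75th percentile) on each array of the 4 groups (x axis; circle a, square b, diamond c). Liver markers lie at -2.56 to -1.86 in knockout hearts and -5.57 to -4.76 in wild type hearts, lung markers at 4.44 on knockout heart a, and adrenal markers at 0.63 on knockout kidney a.

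The remaining hormone, vitamin and retinoid enzymes gave no call in kidney. Cyp24a1 ranged most, at -0.93, 3.47 and 0.33 in knockout kidneys around wild type values of 0.84 to 1.44 (-0.17 ± 1.03). Cyp17a1 (0.11 ± 0.28), Cyp26a1 (0.15 ± 0.16), Cyp27a1 (-0.23 ± 0.21), Cyp27b1 (-0.30 ± 0.18) and Cyp46a1 (0.11 ± 0.22) changed by less than their spread allows to call. Cyp2j5 changed by -0.42 ± 0.24 (5.61, 6.13 and 6.19 in knockouts) and Cyp2c29 by 0.36 ± 0.30. Cyp2a4 was saturated on all 6 kidneys with the probe tested, so no change is given, and Cyp4b1 was saturated on all wild type and 2 knockout kidneys.

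The knockout effect was then compared between the tissues. Of 55 members tested, 2 differed, Cyp2c40 and Cyp2c29, against 0.64% of all 18436 genes. The heart effect of Cyp2c40 exceeded its kidney effect by 3.83 ± 0.48 (adjusted p = 0.00944). In kidneys it was at -3.59, -3.64 and -3.54 in wild types and -3.18, -3.86 and -3.81 in knockouts, groups that overlap. For Cyp2c29 the excess was 2.37 ± 0.37 (adjusted p = 0.0237), with kidneys at -4.31, -4.31 and -4.55 against -3.38, -4.20 and -4.50. With the letter as a block, Cyp2c40 alone passed. The wild type heart level of both genes was below background, so these excesses are fitted values and not measured sizes.

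For the other 10 genes called in heart, the difference between tissues did not pass. It was 0.29 ± 0.87 for Cyp3a11, 1.40 ± 0.81 for Cyp3a41a and -0.26 ± 0.67 for Cyp4f14, and 1.79 ± 0.45 for Cyp2d26 (adjusted p = 0.130). Of the 9 heart genes tested in kidney as well, 8 had a higher mean in the knockout kidneys too, none of them called. Cyp2c40 was the one that had not, at -0.02 ± 0.22. Of all genes tested in kidney, 41.6% were higher. The higher means rest largely on knockout kidney a. It lay at least 1 log2 unit above every other kidney for Cyp2c23, Cyp2d10, Cyp2d26, Cyp3a11, Cyp3a41a and Cyp4f14.

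Of the genes that serve the family, no electron donor or haem synthesis enzyme (0 of 17 in either tissue), no listed receptor or factor (0 of 27 in either tissue) and no other arachidonic acid enzyme (0 of 12 in heart, 0 of 10 in kidney) passed between genotypes. With 0.669% of all genes called in heart and 0.163% in kidney, counts of 0 in lists of this length are near the background. Por differed by 0.37 ± 0.33 in heart and -0.47 ± 0.20 in kidney. Of the 30 conjugating enzymes tested in heart, Ugt3a1 passed, at -6.12, -6.17 and -5.90 in knockouts and not above background in wild types (at least 1.54-fold, adjusted p = 0.00688), and Ugt3a1 and Ugt2b5 passed for the difference between the tissues. Ugt3a1 entered the heart test only through the knockout hearts, whose dimmest signals above background were at -7.10, -6.81 and -6.37. Its values lie near that floor. Dbp, a clock output factor known to drive Cyp2a genes, was at 2.07 and 2.15 in knockout kidneys b and c and 6.08 to 6.80 on the other 4 kidneys (-2.97 ± 1.04, adjusted p = 0.296).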

How the data were processed

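Total RNA of 12 tissue samples was hybridised to 1-colour Agilent arrays. The deposited scanner files give Agilent Feature Extraction intensity values (gProcessedSignal), background-subtracted by that software, version 9.5.3.1 per the file headers and 9.1 per the submitters' processing notes. The headers name build mm7. The deposited table of processed log2 values was used only as an alternative, its columns matched to arrays by their values. Here each array's log2 intensity was centred on its 75th percentile over probes that are not controls, flagged spots were dropped and spots of a probe averaged. A gene was tested if 1 probe passed the background mark in each of the 3 arrays of some group, and by its passing probe of highest mean. Comparisons were fitted with limma 3.58.1 in R 4.3.3 and adjusted by Benjamini-Hochberg over all genes, with calls at an adjusted p under 0.05. The fit was tested on simulated data.

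Groups came from the labels. Deviations of same-letter samples correlated at 0.386, 0.186 and 0.256 in heart and at 0.104, -0.011 and -0.146 in kidney. With 3 letters these values do not settle whether the letters pair samples. An exact permutation test of 3 against 3 arrays cannot go below p = 0.1, and the number of arrays limits the precision. The 75th percentile was at an intensity of 451 to 878, and 24680 to 28812 probes per array were well above background. Named members are those called, those whose groups did not overlap, and those given by role. The members, the gene lists and the rules were chosen with earlier results of these data known. Symbols were updated through RefSeq, which changed 3 member names. Alternatives were other normalizations and filters, blocks for letter and slide, sex, and leaving out each array. One gene of the list of receptors and factors is not reported here by name.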

Additional observations from a re-analysis of the deposited data

Results flagged for a closer look

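Cyp2c40 and Cyp2c29 stand out because the knockout effect differed between heart and kidney by a direct test of the difference (limma interaction term, adjusted over 18436 genes). For Cyp2c40 the heart effect was 3.81 ± 0.39 and the kidney effect -0.02 ± 0.22, a difference of 3.83 (adjusted p = 0.00944, 0.00156 to 0.989 over its alternatives). For Cyp2c29 the effects were 2.73 ± 0.18 and 0.36 ± 0.30, a difference of 2.37 (adjusted p = 0.0237, 0.00754 to 0.807 over its alternatives). All 3 knockout hearts lay above all 3 wild type hearts in both genes, and no wild type heart was above background for either. For heart the effects of genotype and of slide cannot be told apart.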

How the results depend on the processing

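In the tissue comparison 27 to 39 members were called under every alternative run. Cyp4f16 reversed in the knockout arrays, at 0.042. In heart the 12 calls became 1 with normexp, 4 with the filter on every array, 6 with sex as a covariate, 7 with only arrays without Xist and 4 to 14 without 1 array. The other normalizations, filters and the deposited table gave 9 to 11. In kidney the 0 calls became 1 with sex as a covariate, 1 with slide as a block, 1 within slide 2 and 0 to 2 without 1 array. Of all genes, 88, 287 and 262 were called with sex, with slide and within slide 2, against 28 in the main fit. For the difference between tissues the 2 calls became 0 with normexp and 0 with slide as a random block, which was chosen after seeing the data. They became 1 to 4 without 1 array. The filter on every array gave 0, but it left out both genes, which were above background on no wild type heart. Neither could be called there. With normexp Cyp2c29 reversed to -0.37 and Cyp2c40 to -0.022. The causes were not tested, except that the filter on every array tests fewer genes.

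With the replicate block (letter) the calls were 37 between tissues, 5 in heart, 0 in kidney and 1 for the difference. Without knockout heart c, 2257 of all genes were called in heart, against 117. Signals not well above background give bounds only, which holds for 5 of the 12 heart genes in wild type hearts.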
